A study of Homo sapiens with 48 samples.

Results

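Messenger RNA of 8 genes used as markers of kidney tubule injury, HAVCR1, CLU, SPP1, CD44, ANXA2, S100A6, CST3 and B2M, was followed in HK-2 cells, an immortalized line of human proximal tubule epithelium. The members were all probe sets whose only gene symbol in the platform annotation was 1 of these 8, which gave 32 of 54675 probe sets on the array and 8 of 19775 genes with a probe set of their own. HAVCR1 had 1 probe set, CLU 4, SPP1 2, CD44 13, ANXA2 4, S100A6 2, CST3 3 and B2M 3. Of the 32, 24 exceeded log2 4 in at least 3 arrays and were tested among 20960 probe sets. The other 8 stayed at or near the low end of the scale and are given by level only: 1 of CLU, 4 of CD44, 1 of ANXA2, 1 of CST3 and 1 of B2M, with group means between 2.21 and 3.75.

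The study measured expression in HK-2 cultures exposed to 4 compounds, labelled CsA, Fk, Ra and Nnm, with the aim of finding signatures of kidney toxicity. The 48 arrays fall into 16 groups of 3 cultures that the labels call biological replicates. In the CsA set, CsA was set against vehicle at 12 h and 48 h. In the Fk and Ra set, both compounds were set against a shared vehicle group at 12 h and 48 h. In the Nnm set, a high and a low dose were set against vehicle at 24 h and 48 h. All groups shared the cell line, a medium with EGF, hydrocortisone, insulin, transferrin and selenite, and treatment near confluence, 24 h after seeding. The labels give the compounds by these short names and the Nnm doses as high and low, assign the CsA set to lab 3, and describe 1 cell line.

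Injured proximal tubule cells dedifferentiate, and a set of genes that are low in healthy tubules then comes on. HAVCR1 (chr5:157029413-157069407 in GRCh38.p14), also called kidney injury molecule, is a membrane glycoprotein that binds phosphatidylserine on dying cells and whose outer part is shed into urine. CLU encodes clusterin, a secreted chaperone. SPP1 (chr4:87975714-87983411) encodes osteopontin, a secreted ligand of integrins and of CD44, and CD44 (chr11:35139171-35232402) encodes the main cell-surface receptor of hyaluronan. ANXA2 (chr15:60347151-60397986) encodes annexin A2, a membrane-binding protein regulated by calcium, and S100A6 (chr1:153534599-153535991) a small calcium-binding protein. CST3 (chr20:23626706-23637955) encodes cystatin C, a secreted inhibitor of cysteine proteases, and B2M (chr15:44711517-44718145) the light chain of class I antigen-presenting molecules. Both small proteins are filtered in the glomerulus and taken up by the proximal tubule, so their levels in urine report on its function.

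The RefSeq promoter table (GRCh38.p14) held an entry for 7 of the 8 genes, all but CLU. The 250 bases before the start given there are shown for the 4 genes besides CLU that carry most of the differences reported here, HAVCR1 (chr5:157059117-157059366, minus strand), CD44 (chr11:35138921-35139170, plus strand), ANXA2 (chr15:60397987-60398236, minus strand) and CST3 (chr20:23637956-23638205, minus strand). Each is written 5′ to 3′, with motif matches in capitals.
HAVCR1: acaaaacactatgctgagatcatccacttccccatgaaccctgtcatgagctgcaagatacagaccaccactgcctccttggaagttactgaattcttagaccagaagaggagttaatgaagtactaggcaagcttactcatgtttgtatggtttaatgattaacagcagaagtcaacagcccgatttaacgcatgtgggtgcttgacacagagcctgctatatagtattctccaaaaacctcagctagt
CD44: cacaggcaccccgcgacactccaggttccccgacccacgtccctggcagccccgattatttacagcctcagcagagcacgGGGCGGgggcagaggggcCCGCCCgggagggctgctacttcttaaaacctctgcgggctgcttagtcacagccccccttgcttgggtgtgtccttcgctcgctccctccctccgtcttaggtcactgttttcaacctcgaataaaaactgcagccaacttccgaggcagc
ANXA2: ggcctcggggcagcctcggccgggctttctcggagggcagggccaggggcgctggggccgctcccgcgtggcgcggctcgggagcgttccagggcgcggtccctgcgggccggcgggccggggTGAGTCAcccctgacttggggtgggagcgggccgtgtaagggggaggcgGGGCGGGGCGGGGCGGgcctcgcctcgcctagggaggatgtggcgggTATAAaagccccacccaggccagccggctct
CST3: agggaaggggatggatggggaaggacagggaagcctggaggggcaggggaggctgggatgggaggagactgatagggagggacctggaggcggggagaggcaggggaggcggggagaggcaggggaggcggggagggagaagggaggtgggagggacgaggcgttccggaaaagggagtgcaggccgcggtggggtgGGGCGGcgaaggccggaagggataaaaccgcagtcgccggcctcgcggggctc
Both strands were searched for 4 motifs, and the share of the 27305 promoters of this length in the table that hold each was computed. The TATA box (TATAA) occurs in 19.6% of them, the GC box (GGGCGG) in 42.3%, the CCAAT box in 33.0% and the AP-1 site (TGANTCA) in 6.6%. The HAVCR1 window held none of these letters, and the start used there lies inside the gene's annotated span. The CD44 window held GGGCGG on the plus strand 170 bases and on the minus strand 152 bases before the start. The ANXA2 window held TATAA 31 bases before the start, 3 overlapping copies of GGGCGG beginning 78, 73 and 68 bases before it, and TGAGTCA 127 bases before it. The CST3 window held GGGCGG 53 bases before the start.

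Several arrays stood apart, and the results that rest on them are given with and without them. In the CsA set the cultures with number 3 differed from numbers 1 and 2 in treated and vehicle groups alike: 125 of 20960 probe sets (0.596%) lay more than 2 log2 units away in the same direction in all 4 groups. In the Nnm set the cultures with number 2 moved less than the others. At 48 h, 4.19% of probe sets differed by more than 1 log2 unit between high dose and vehicle of number 2. This share was 22.2% for number 1 and 18.3% for number 3. Fits without number 2 were added after this was seen. Where number 2 moved less, larger differences and smaller adjusted p without it were likely in advance and add no support. The array of Ra at 48 h with replicate 2 had a median of 6.76, against 7.46 to 7.80 in all other arrays, and the median difference of all probe sets between Ra and vehicle at 48 h was -0.17. Of 12 listed proximal tubule markers on the array, only PAX8 and CDH6 had a mean above log2 4, while LRP2, CUBN, AQP1 and SLC34A1 were among the 10 below it. All 5 epithelial markers were above it, as were 3 of 7 fibroblast markers (COL1A1, DCN and LUM), and 0 of 5 leukocyte markers. In such bulk samples, fewer cells of a type and less RNA per cell cannot be told apart.

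Differences are on the log2 scale, tested with limma over all 20960 probe sets, and a call means an adjusted p (Benjamini-Hochberg) below 0.05. Arrays of the CsA and Nnm sets carry replicate numbers that deviated together. The value or count with the replicate number as a block is therefore printed where it changes the calls of members. For the related lists it is printed with most of the counts given. That fit also has a smaller shared spread, which bears on the Fk and Ra comparisons. The p-values measure the spread between cultures that the labels call biological replicates.

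Most calls among the members were made with Nnm, and more at 48 h than at 24 h. At the high dose for 48 h, 5 of 24 member probe sets were called, against 15.5% of all probe sets tested: 3 of ANXA2 were lower, and 2 of CST3 were higher. The dimmer of these CST3 probe sets, 230343_at, exceeded log2 4 in 4 arrays only, all at the high dose of Nnm. It passed the filter through them, so its calls in this paragraph add no support. With the replicate block 16 of 24 were called, against 24.1% of all, and these added 2 of CLU and 7 of CD44 that were higher and 1 each of HAVCR1 and S100A6 that were lower. At the low dose for 48 h no member was called (4.62% of all), with 6 at an unadjusted p under 0.05, and 12 were called with the block (10.7% of all), 9 higher and 3 lower. At 24 h the high dose had 1 call (20.9% of all), a dim CST3 probe set, and 3 with the block (29.1% of all). The low dose at 24 h had no call (6.8% of all) and 4 at an unadjusted p under 0.05. With the block it had 2 calls, both of CLU, against 14.3% of all. Several probe sets of a gene share its transcripts, so these counts are not counts of independent genes.

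CsA, Fk and Ra gave few differences in these genes. No member was called for CsA at 12 h (0% of all) or 48 h (0.83% of all), for Fk at 12 h or 48 h (0% of all each), or for Ra at 12 h (0.0668% of all) or 48 h (16.3% of all). At an unadjusted p under 0.05 these 6 comparisons had 0 members, except Ra at 48 h with 1. With the block, Ra at 48 h had 2 calls, in CD44 and CST3, against 23% of all, and CsA at 12 h (0.00477% of all) and 48 h (2.71%), Fk at 12 h (0.00954%) and 48 h (0.0191%) and Ra at 12 h (0.305%) still had 0. At 12 h the Ra arrays lay wholly above vehicle for 10 member probe sets and wholly below for 3, against 28.7% of all probe sets that did not overlap. For Fk at 12 h these counts were 7 and 3, against 15.2% of all.

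**Figure D1:**
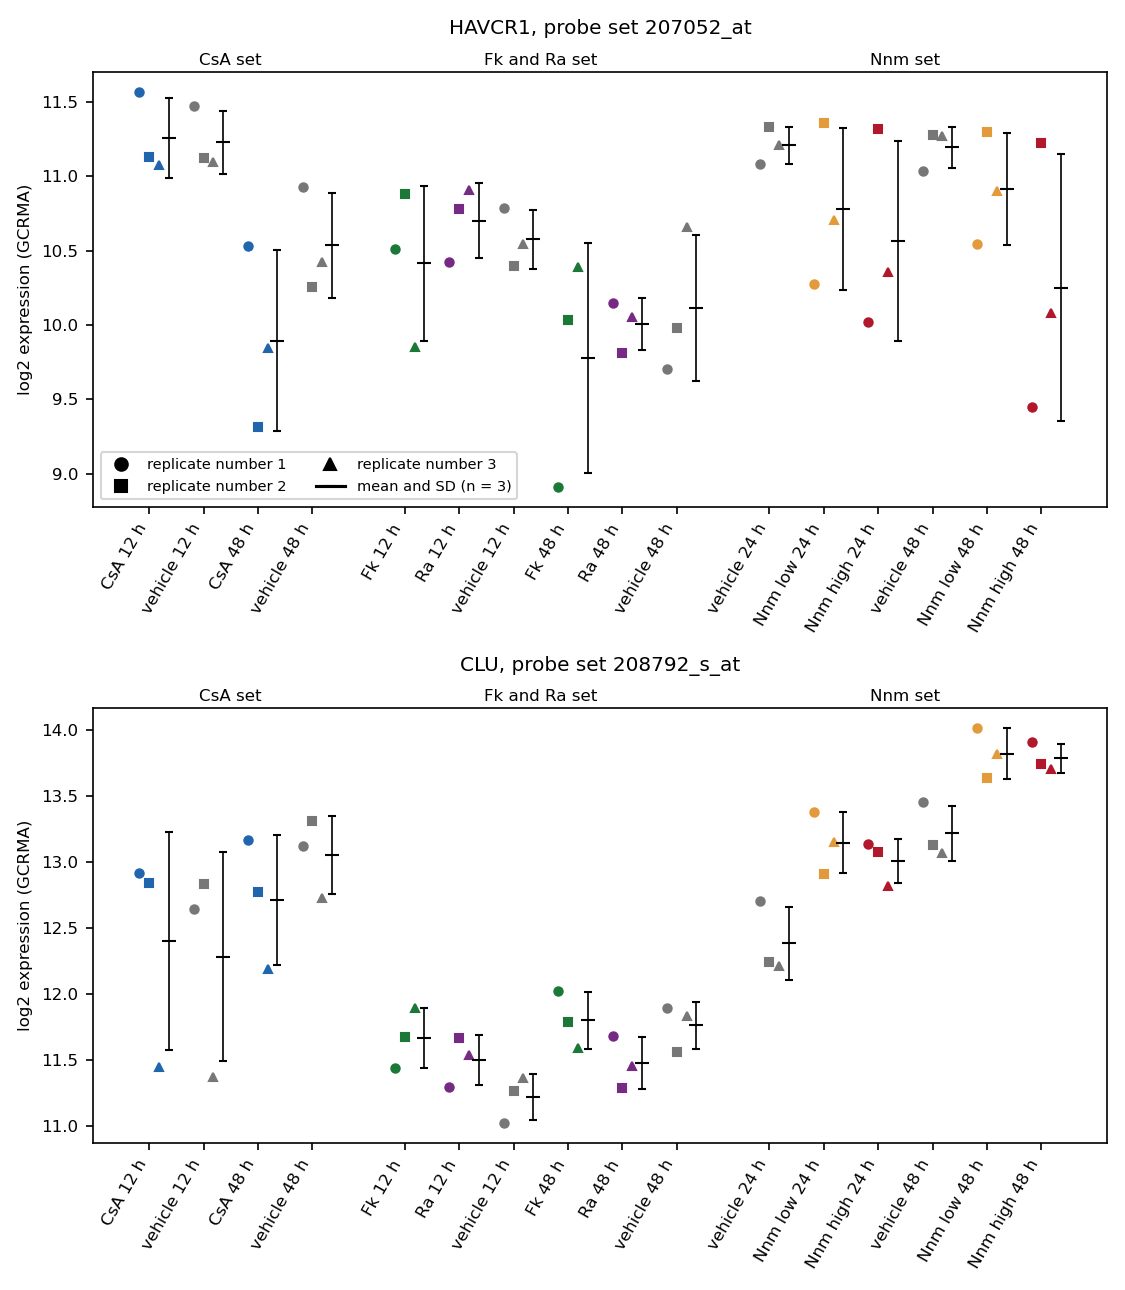
Log2 expression (GCRMA, vertical axis) of HAVCR1 probe set 207052_at and CLU probe set 208792_s_at in all 16 groups. Each point is 1 culture, its shape gives the replicate number, and the line and bars are the mean and SD of 3. HAVCR1 of Nnm number 2 stays between 11.22 and 11.35 in all 6 groups of the Nnm set. CLU is higher in all 12 Nnm-treated cultures than in any vehicle culture of the same time. Of all probe sets tested, 17.6% to 18.4% lie wholly above vehicle in each comparison of Nnm with vehicle.

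HAVCR1 was lower after the high dose of Nnm at 48 h in 2 of the 3 replicate numbers, and the difference passed the test with the replicate block only. In vehicle cultures at 48 h HAVCR1 (207052_at) read 11.03, 11.27 and 11.27 in numbers 1, 2 and 3, at the low dose 10.54, 11.29 and 10.90, and at the high dose 9.45, 11.22 and 10.08. Numbers 1 and 3 therefore lay below their vehicle cultures at both doses, and number 2 differed from its vehicle culture by -0.05 at the high dose. The high dose averaged 10.25 ± 0.90 and vehicle 11.19 ± 0.14 (SD, n = 3 each), a difference of -0.94 (SE 0.37, fold 0.521, 95% interval -1.70 to -0.18) with adjusted p = 0.0821 in limma. Within numbers 1, 2 and 3 the differences were -1.58, -0.05 and -1.19, and with the replicate block the adjusted p was 0.0165. Without number 2, the same fit gave -1.39 with adjusted p = 0.00278. This adds no support, since number 2 was left out after it was seen to move less. The low dose at 48 h differed from vehicle by -0.28 (adjusted p = 0.764), and by -0.43 without number 2 (adjusted p = 0.472 with the block).

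At 24 h numbers 1 and 3 again lay below vehicle at both doses, by less than at 48 h for the high dose and by more for the low dose. HAVCR1 read 11.08, 11.33 and 11.21 in vehicle, 10.27, 11.35 and 10.70 at the low dose, and 10.02, 11.31 and 10.35 at the high dose. The high dose differed from vehicle by -0.64 (SE 0.37, adjusted p = 0.228), with within-number differences of -1.06, -0.02 and -0.86. Number 2 again lay level with its vehicle culture, and without it the block fit gave -0.96 with adjusted p = 0.0292. That call adds no support either. The low dose differed by -0.43 (adjusted p = 0.551), with -0.81, 0.02 and -0.51 within numbers, against -0.49, 0.02 and -0.37 at 48 h. Between the doses HAVCR1 differed by -0.66 at 48 h (high minus low, 95% interval -1.42 to 0.10), which did not pass the test, and the interval leaves room for a sizeable difference.

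HAVCR1 did not pass the test for CsA, Fk or Ra. At 48 h it read 10.53, 9.31 and 9.84 with CsA, against 10.93, 10.25 and 10.43 with vehicle, lower within every replicate number (-0.40, -0.94 and -0.58). The groups overlapped, and the difference of -0.64 (95% interval -1.40 to 0.12) had adjusted p = 0.579, and 0.260 with the block. At 12 h CsA differed from vehicle by 0.03. With Fk it read 8.91, 10.03 and 10.39 at 48 h, with Ra 10.15, 9.81 and 10.05, and with their vehicle 9.71, 9.98 and 10.66, so all 3 groups overlapped. Relative to the shift of the Ra arrays, with each array centred on its median, HAVCR1 differed by 0.18 between Ra and vehicle at 48 h (adjusted p = 0.788). Across the 16 groups the mean of HAVCR1 was highest in CsA at 12 h (11.26), its vehicle at 12 h (11.23) and the Nnm vehicles at 24 h (11.21) and 48 h (11.19), and lowest in CsA at 48 h (9.89) and Fk at 48 h (9.78). No gap between neighbours in that order exceeded the larger of their SDs. Across sets, the compound and the set cannot be told apart in such an order of levels.

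In its pair of brighter probe sets CLU was higher after Nnm at both doses and both times, and in all 3 replicate numbers. The gene lies at chr8:27596917-27614700 in GRCh38.p14. CLU (208792_s_at) read 12.70, 12.24 and 12.21 in vehicle at 24 h, 13.38, 12.91 and 13.15 at the low dose, and 13.13, 13.07 and 12.81 at the high dose. At 48 h it read 13.45, 13.12 and 13.07 in vehicle, 14.02, 13.63 and 13.81 at the low dose, and 13.91, 13.74 and 13.70 at the high dose. Every treated culture lay above every vehicle culture of its time. Of all probe sets tested, 18.3% and 17.6% did so at the low dose (24 h and 48 h), and 18.2% and 18.4% at the high dose. The low dose differed from vehicle by 0.76 at 24 h (SE 0.29, fold 1.70) and by 0.60 at 48 h, and the high dose by 0.62 and 0.57. None of these was called without the block, with adjusted p of 0.108, 0.251, 0.127 and 0.189 in limma. All 4 were called with it, with adjusted p of 0.00288, 0.0190, 0.00646 and 0.0142.

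Number 2, in which HAVCR1 stayed level, shared the CLU difference. At the high dose the within-number differences of 208792_s_at were 0.43, 0.83 and 0.60 at 24 h, largest in number 2, and 0.46, 0.62 and 0.64 at 48 h. Without number 2 and with the block, the low dose gave 0.81 at 24 h (adjusted p = 0.0114) and 0.65 at 48 h (0.0484), and the high dose 0.52 (0.0704) and 0.55 (0.0644). The high-dose calls were lost without number 2, and the reason was not tested. The doses could not be separated: high minus low was -0.14 at 24 h (95% interval -0.73 to 0.45) and -0.04 at 48 h (95% interval -0.63 to 0.56). A neighbouring probe set, 208791_at, gave 0.80 and 0.62 at the low dose and 0.63 and 0.59 at the high dose, all called with the block. The dimmer 222043_at gave 0.42 and 0.45 at the low dose and 0.14 and 0.20 at the high dose, and none was called. In number 1 it lay below vehicle at the high dose, by -0.20 at 24 h and -0.27 at 48 h.

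CLU did not pass the test for the other compounds. With Fk at 12 h it read 11.44, 11.67 and 11.89, against 11.02, 11.27 and 11.36 with vehicle. The groups did not overlap, as for 15.2% of all probe sets, but the difference of 0.45 had adjusted p = 0.868. With Ra it differed from the same vehicle by 0.28 at 12 h, and by -0.29 at 48 h (adjusted p = 0.563). After each array was centred on its median the 48 h difference of Ra was 0.00 (-0.0019). With CsA it differed by 0.12 at 12 h and by -0.34 at 48 h (adjusted p = 0.770). Number 3 of the CsA set read low for CLU in treated and vehicle cultures at 12 h, by -1.43 and -1.36 against the mean of numbers 1 and 2. Over the 16 groups the 2 Nnm doses at 48 h were the highest (13.82 at the low dose, 13.78 at the high dose), and the gap of 0.57 to the next group exceeded the SDs. The lowest was the Fk and Ra vehicle at 12 h (11.22).

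**Figure D2:**
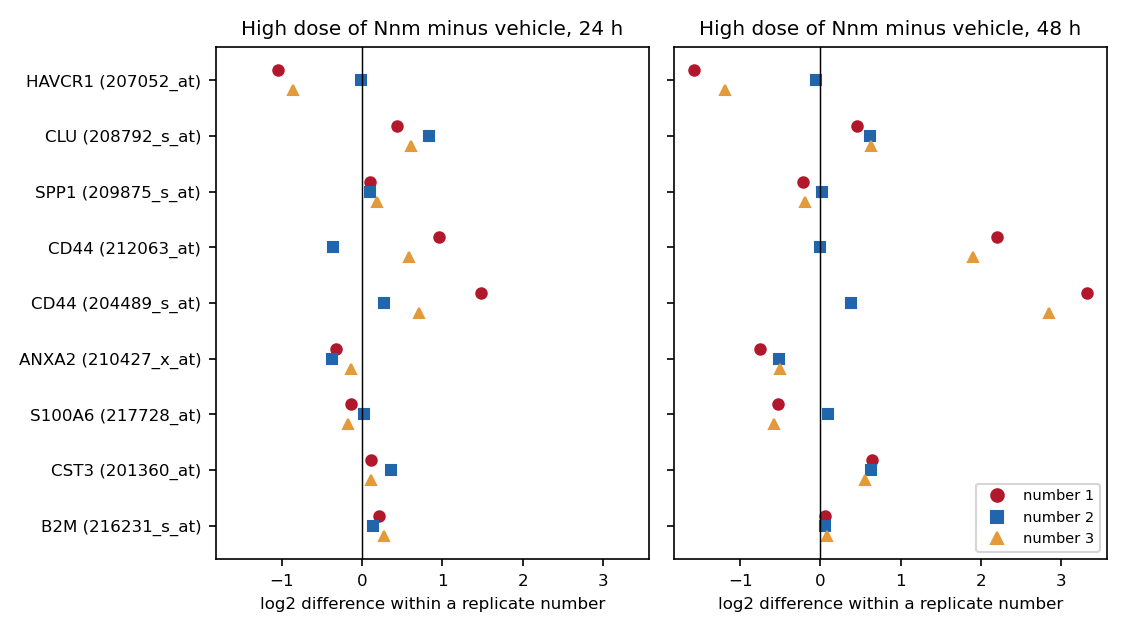
Log2 difference between high dose of Nnm and vehicle within each replicate number (horizontal axis) at 24 h (left) and 48 h (right) for the brightest probe set of each gene and CD44 204489_s_at. Number 2 lies near 0 for HAVCR1 (-0.05 at 48 h) and well below the others for CD44 (0.39 against 3.33 and 2.84), while all numbers agree in sign for CLU, ANXA2 and CST3 at both times.

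CD44, the hyaluronan receptor, had the largest differences among the bright member probe sets, and they depended on the replicate number. Its probe set with the largest difference, 204489_s_at, chosen for this after its values were seen, read 8.70, 8.54 and 9.14 in vehicle at 48 h, 10.99, 8.44 and 10.93 at the low dose, and 12.03, 8.92 and 11.99 at the high dose. Numbers 1 and 3 lay far above vehicle and number 2 within or close to the vehicle range. High dose minus vehicle was 2.19 (SE 1.00, fold 4.55) with adjusted p = 0.138, and 2.36e-05 with the block. Low dose minus vehicle was 1.32 with adjusted p = 0.523, and 0.00944 with the block. Without number 2 the block fit gave 3.09 at the high dose (adjusted p = 6.85e-10) and 2.04 at the low dose (2.93e-06). These values add no support, since number 2 was left out after it was seen to move less. Within number 2 alone the differences were 0.39 and -0.10.

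The other CD44 probe sets moved alongside it. With the block 7 of 9 tested were higher at the high dose and 48 h, by 1.37 to 2.19, and 6 at the low dose, by 1.10 to 1.32. The brightest, 212063_at, read 9.56, 9.72 and 10.06 in vehicle and 11.76, 9.72 and 11.96 at the high dose, a difference of 1.37 (adjusted p = 0.241, and 0.00121 with the block). The exceptions were 217523_at (0.77, adjusted p = 0.258 with the block) and 229221_at, which exceeded log2 4 in 5 arrays only. At 24 h 204489_s_at differed from vehicle by 0.82 at the high dose and 0.62 at the low dose, and neither was called with the block (adjusted p = 0.0635 and 0.232). Without number 2 both were, at 1.10 (0.00123) and 1.02 (0.00531), which adds no support for the same reason. None of the 5 epithelial markers was called at the high dose and 48 h with or without the block: CDH1, the epithelial cadherin, differed by -0.94, KRT8 by -0.30, EPCAM by -0.09, KRT19 by 0.11 and KRT18 by 0.20. The summed level of the 7 fibroblast markers ran over 11.91 to 12.52 against 12.20 to 12.32 in vehicle on the log2 scale. That of the 5 endothelial markers ran over 5.69 to 5.96 against 5.33 to 5.43, with PECAM1 called (5.05 against 4.23, adjusted p = 0.00762 in limma) and CDH5, VWF, KDR and TEK below log2 4. Their part in the CD44 result was not tested.

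In the CsA set CD44 set number 3 apart from numbers 1 and 2 whether or not CsA was present. At 12 h 204489_s_at read 9.13, 8.88 and 12.71 with CsA, against 8.77, 8.86 and 12.78 with vehicle. At 48 h it read 8.52, 8.26 and 11.52 with CsA, against 7.66, 7.49 and 11.69 with vehicle. Number 3 thus exceeded the mean of the other numbers by 3.70, 3.96, 3.14 and 4.11 in these 4 groups, and 7 CD44 probe sets did so by more than 2 units in every group. In the same arrays CDH1 differed from the mean of numbers 1 and 2 by -4.50, -4.90, -3.66 and -4.87. EPCAM, a further epithelial marker, differed by -1.33, -1.39, -1.36 and -1.49, while KRT8 (-1.10, -1.23, -0.19 and -0.08), KRT18 (-0.47, -0.46, -0.26 and 0.09) and KRT19 (-0.76, -1.03, -0.11 and 0.09) did so little at 48 h. The fibroblast marker DCN differed by 0.27 and -0.02 at 12 h, and by 2.33 and 2.53 at 48 h. The other fibroblast markers above log2 4 differed less at 48 h and not all in that direction. COL1A1 gave -0.64, -0.49, -0.97 and 0.01, and LUM -0.24, -0.06, -0.50 and 0.80, in the order used for CDH1. The part of these markers in the CD44 values was not tested. The CsA effect on CD44 at 48 h was 0.48 (adjusted p = 0.953), with within-number differences of 0.86, 0.76 and -0.17. Without number 3 it was 0.81 (adjusted p = 0.478 with the block).

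**Figure D3:**
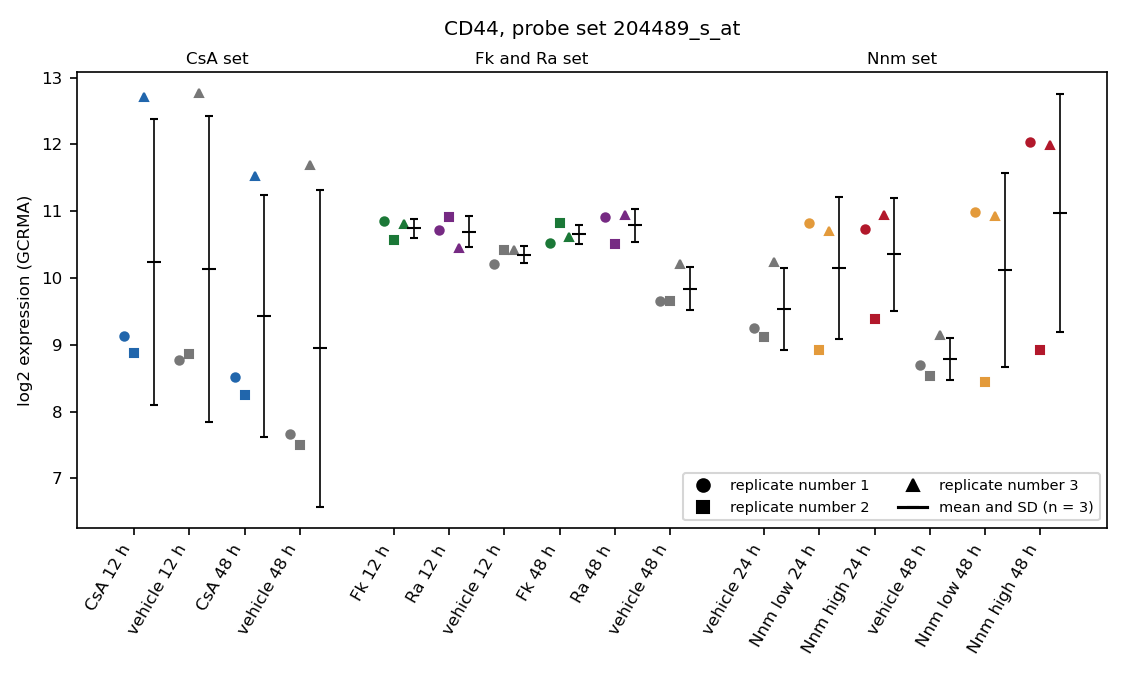
Log2 expression (GCRMA, vertical axis) of CD44 probe set 204489_s_at in all 16 groups, with 1 point per culture, its shape giving the replicate number, and the mean and SD of 3. Number 3 of the CsA set lies between 11.52 and 12.78 with and without CsA, and numbers 1 and 3 of the Nnm set lie above number 2 at both doses.

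With the block the CD44 probe set 204489_s_at, chosen above after its values were seen, was also called higher after Ra at 48 h, by a smaller amount. No other tested CD44 probe set was called there with or without the block, the brightest included. With Ra 204489_s_at read 10.92, 10.51 and 10.94, and with Fk 10.53, 10.82 and 10.61, against 9.65, 9.65 and 10.21 with vehicle. All treated cultures lay above all vehicle cultures for both compounds, as for 4.83% of all probe sets with Ra and 6.34% with Fk. The Ra difference was 0.95 (fold 1.93) with adjusted p = 0.581 in limma, and 0.0386 with the block, and after centring each array it was 1.23 (adjusted p = 0.425 without the block). The Fk difference was 0.81 and was not called with or without the block (adjusted p = 1 and 0.788). Fk minus Ra was -0.14 (95% interval -2.18 to 1.90), and the values of the compounds overlapped. That interval rests on a spread shared by all 16 groups, of which the largest group SD was 2.38. It is not the spread of the Fk and Ra cultures. The block fit has no block term for these arrays, so its lower adjusted p for Ra follows from its smaller shared spread. Beside the Ra difference, the tubule marker CDH6 was higher by 1.91 (adjusted p = 0.0156 in limma). The fibroblast marker COL1A1 differed by -1.04 (0.0270) and the epithelial marker CDH1 by -1.78 (0.289, and 0.00351 with the block). The tubule marker PAX8 differed by -0.11, and the fibroblast markers DCN and LUM by 0.85 and 0.09. Among epithelial markers KRT8 and KRT18 differed by 0.33 and 0.08, and KRT19 and EPCAM by -0.30 each. PAX8, DCN, LUM, KRT8, KRT18, KRT19 and EPCAM were not called with or without the block. The summed level of the 12 tubule markers did not overlap, at 12.7 to 13.5 with Ra against 11.7 to 12.6 with vehicle. Of these markers only PAX8 and CDH6 had a mean above the filter level. Of that pair only CDH6 was higher with Ra, with a mean of 12.74 against 10.82. The sum therefore does not show a shift of the whole list. For the fibroblast and for the epithelial markers the ranges of the summed level overlapped. The part of these markers in the CD44 difference was not tested.

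SPP1, the osteopontin gene, was near the top of the scale in every culture and passed no test. Its bright probe set 209875_s_at ran from 14.67 to 15.34 over the 48 arrays. At the high dose of Nnm and 48 h it read 14.80, 15.06 and 14.83, against 15.02, 15.05 and 15.03 with vehicle, a difference of -0.13 (adjusted p = 0.458). The dimmer 1568574_x_at ran from 5.55 to 8.82 and had no call.

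ANXA2 was lower at the high dose of Nnm at 48 h in all 3 of its tested probe sets. ANXA2 (210427_x_at) read 12.86, 13.30 and 13.42 at the high dose, against 13.61, 13.81 and 13.93 in vehicle, with no overlap. Of all probe sets tested, 15.8% lay wholly below vehicle in the same way. The difference was -0.59 (SE 0.18, fold 0.663, adjusted p = 0.0260 in limma), and -0.75, -0.51 and -0.51 within numbers. The other probe sets gave -0.58 and -0.60 (adjusted p = 0.0234 each). All 3 are of the x_at type, which can share probes with related sequences, and their differences are not independent. At the low dose the differences were -0.48, -0.52 and -0.53, called with the block (adjusted p = 0.0174, 0.00619 and 0.00804) and not without it. At the high dose, leaving out 1 array could end the call: without high-dose replicate 1 the adjusted p ran from 0.202 to 0.231 over the 3 probe sets.

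S100A6, which belongs to the same calcium-regulated group, was lower in 2 replicate numbers only. S100A6 (217728_at) read 14.12, 14.61 and 14.15 at the high dose and 48 h, against 14.64, 14.53 and 14.73 in vehicle, so that number 2 lay within the vehicle range. The difference of -0.34 (SE 0.13) had adjusted p = 0.0651, and 0.0436 with the block. Without number 2 it was -0.55 (adjusted p = 0.00476 with the block), which adds no support, since number 2 was left out after the data were seen. At the low dose the difference of 217728_at was -0.07 at 48 h. The dimmer 228923_at, with a mean of 5.28 over all arrays, was not called at the high dose. Within numbers 1, 2 and 3 it gave -0.33, 0.83 and -0.94 there at 24 h, and -0.08, 0.34 and -0.63 at 48 h. With Ra at 48 h 217728_at differed from vehicle by 0.13 (adjusted p = 0.559), and by 0.41 with each array centred on its median (adjusted p = 0.0490).

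CST3, the cystatin C gene, was higher at the high dose of Nnm at 48 h. CST3 (201360_at) read 11.59, 10.84 and 11.30 at the high dose, against 10.95, 10.21 and 10.75 in vehicle. The groups overlapped because number 2 was low in both, but within numbers the differences were 0.65, 0.64 and 0.55. The mean difference was 0.61 (SE 0.21, fold 1.53, adjusted p = 0.0417 in limma, and 0.000783 with the block), and without number 2 it was 0.60 (adjusted p = 0.00696 with the block). The call without the block was lost under median centring (adjusted p = 0.0639), with no filter (0.0639) and with the Nnm set fitted alone (0.133). At the low dose and 48 h it was 0.52, called with the block only (adjusted p = 0.152, and 0.00826 with the block). With Ra at 48 h it read 11.05, 10.66 and 10.89, against 10.47, 10.30 and 10.62 in vehicle. It lay above vehicle in every culture, as did 4.83% of all probe sets. The difference of 0.40 had adjusted p = 0.189, and 0.0232 with the block. Without Ra replicate 2 the Ra difference was 0.51 (adjusted p = 0.197 without the block), and with arrays centred on their medians 0.69 (adjusted p = 0.0230).

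A second CST3 probe set, 230343_at, exceeded log2 4 in 4 arrays only, all at the high dose of Nnm. It read 5.46, 2.38 and 6.23 there at 24 h, against 2.26, 2.27 and 2.29 in vehicle, and 4.25, 2.42 and 4.65 at 48 h, against 2.29, 2.28 and 2.28. Number 2 stayed near the vehicle level at both times. The calls at 24 h (2.41, adjusted p = 0.00126) and 48 h (1.49, adjusted p = 0.0420) follow from how the probe set passed the filter and add no support.

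B2M, the class I light chain, passed the test in none of the 10 treatment comparisons. The group means of its brighter probe set 216231_s_at lay between 14.04 and 14.54. The largest treated difference was at the low dose of Nnm at 24 h, where it read 14.30, 14.42 and 14.35, against 14.03, 14.29 and 14.01 in vehicle, a difference of 0.24 (SE 0.10, adjusted p = 0.135, and 0.0607 with the block).

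**Figure D4:**
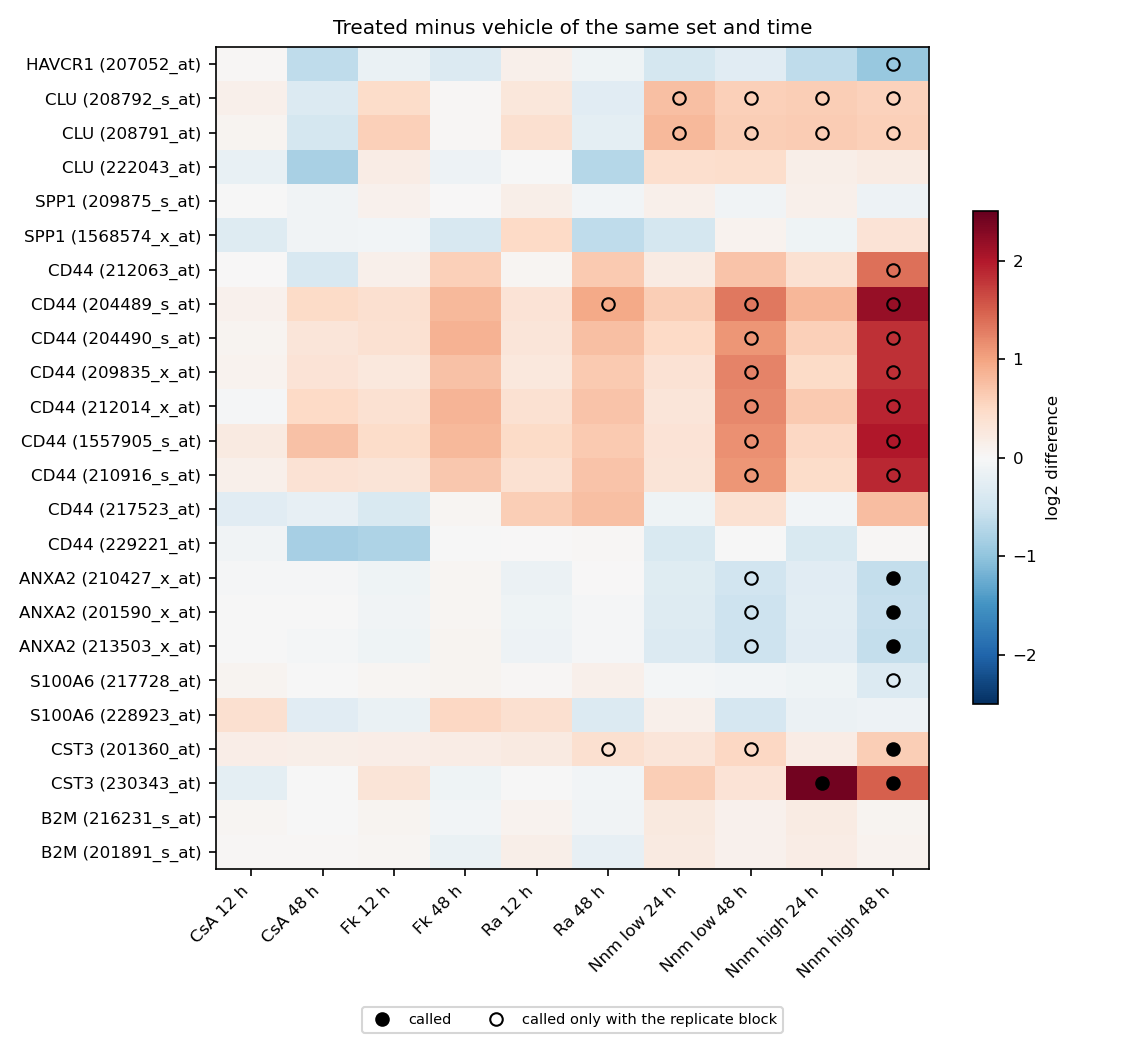
Log2 difference between treated and vehicle cultures of the same set and time (colour) for the 24 tested member probe sets (rows) in the 10 treatment comparisons (columns). Filled circles mark calls of the fit without the block and open circles those gained with the replicate block; both kinds lie in the Nnm columns, apart from 2 open circles for Ra at 48 h.

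The vehicle cultures alone differed between 48 h and the earlier time. In all 3 sets every tested CLU and B2M probe set was higher at 48 h in its mean, and every tested ANXA2 and CD44 probe set was lower. HAVCR1 was lower in the CsA set and in the Fk and Ra set. In the Nnm set it was level, at 11.19 at 48 h against 11.21 at 24 h. Few of these differences were called. CLU was higher at 48 h: 13.12, 13.31 and 12.73 at 48 h in the CsA-set vehicle, against 12.64, 12.83 and 11.37 at 12 h, and 11.89, 11.56 and 11.83 at 48 h in the Fk and Ra vehicle, against 11.02, 11.27 and 11.36 at 12 h. The differences were 0.77 in the CsA set, 0.55 in the Fk and Ra set and 0.83 in the Nnm set (48 h minus 24 h), none called without the block (adjusted p = 0.0816, 0.210 and 0.827) and all called with it (0.00200, 0.0181 and 0.0167). In the CsA set number 3 had 1.35 against 0.48 and 0.48 in the others, and without number 3 the difference was 0.48 (adjusted p = 0.107 with the block). In the Nnm set it was 0.80 without number 2 (adjusted p = 0.181 with the block). These vehicle differences span the range of the Nnm effect on CLU (0.57 to 0.76), and each treated group was set against vehicle of its own time.

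ANXA2 was lower at 48 h in vehicle. In the Fk and Ra vehicle 210427_x_at read 13.87, 14.04 and 14.28 at 48 h, against 14.53 in each culture at 12 h, a difference of -0.47 (adjusted p = 0.0758, and 0.00998 with the block). The CsA set gave -0.46 (adjusted p = 0.0985, and 0.0144 with the block) and the Nnm set -0.40 (adjusted p = 0.887, and 0.222 with the block). HAVCR1 at 48 h lay below 12 h in every CsA-set vehicle culture, by -0.54, -0.87 and -0.67 within numbers, but the difference of -0.69 did not pass (adjusted p = 0.247, and 0.0911 with the block). CD44 204489_s_at differed by -1.19 in the CsA-set vehicle, called with the block only (adjusted p = 0.0125), and not without number 3 (-1.24, adjusted p = 0.0630). In the Fk and Ra set it differed by -0.51 and in the Nnm set by -0.74, and the brightest CD44 probe set, 212063_at, by -0.72, -0.71 and -0.77 in the 3 sets, none called with or without the block.

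B2M was the only member called over time in vehicle without the block. B2M (201891_s_at) read 14.22, 14.16 and 14.19 at 48 h in the Fk and Ra vehicle, against 13.96, 13.95 and 13.84 at 12 h, a difference of 0.27 (SE 0.10, adjusted p = 0.0477). It failed with each of the 6 arrays left out in turn. Over the member probe sets, the CsA-set vehicle had 0 calls over time (11.4% of all) with 5 at an unadjusted p under 0.05, and 8 with the block (18.7% of all). The Fk and Ra vehicle had 1 (17% of all), and 6 with the block (24% of all). The Nnm-set vehicle had 0 (0% of all) with 6 at an unadjusted p under 0.05, and 2 with the block (0.386% of all).

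**Figure D5:**
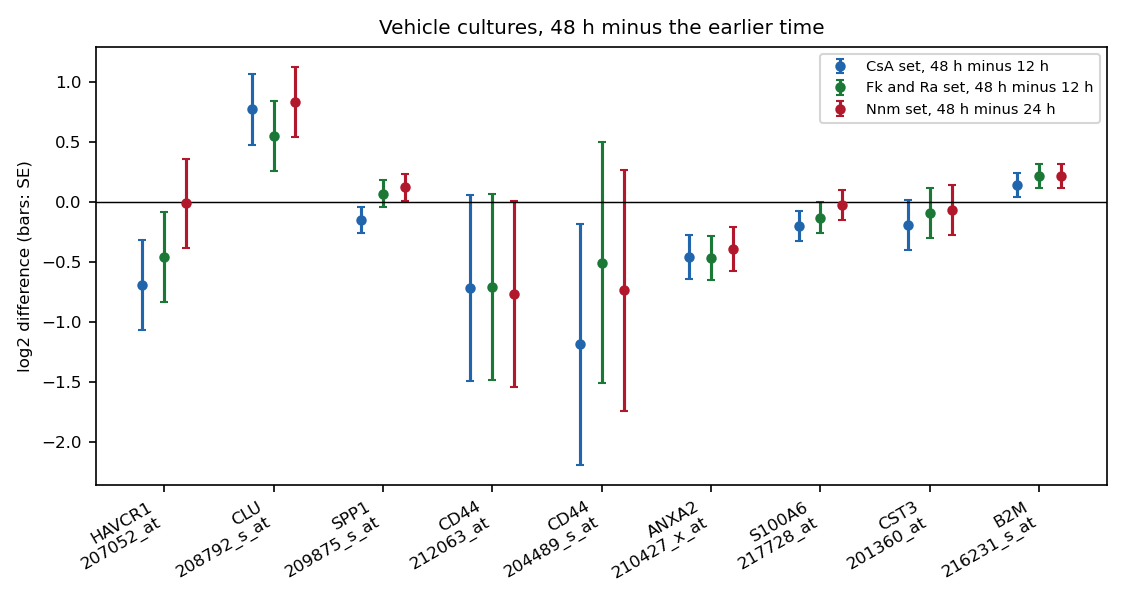
Log2 difference between vehicle cultures at 48 h and at the earlier time (vertical axis) in the CsA set, the Fk and Ra set (both 48 h minus 12 h) and the Nnm set (48 h minus 24 h), for the brightest probe set of each gene and CD44 204489_s_at. Points are differences of group means and bars their SE; CLU is above 0 (0.55 to 0.83) and ANXA2 below 0 (-0.47 to -0.40) in all 3 sets.

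Direct comparisons between doses, compounds and times of treatment gave no calls among the members with all arrays in the fit. Without Nnm number 2 there were a few. They add no support, since number 2 was left out after it was seen to move less than the others. High against low dose of Nnm had 0 of 24 at 24 h and at 48 h (0.00477% of all each), with 1 and 2 at an unadjusted p under 0.05. With the block these too had 0 (0.0716% and 0.0763% of all). Without number 2 the block fit called 1 at 24 h, the dim CST3 230343_at (4.96% of all), and 3 at 48 h (2.6% of all), that probe set again and CD44 204489_s_at (1.05, adjusted p = 0.0175) and 212014_x_at (0.94, adjusted p = 0.0254). Fk against Ra had 0 at 12 h (0.00477% of all) and 0 at 48 h (15.8% of all), with 0 and 1 at an unadjusted p under 0.05, and 0 with the block (0.0334% and 22% of all). The difference in effect between 48 h and the earlier time was called for no member: not for CsA (0.0143% of all, 0.0286% with the block), Fk (0% in both fits), Ra (2.67%, 6.61% with the block), or the low dose (0% in both fits) and high dose of Nnm (0.0239%, 0.0334% with the block). Without number 2 the last of these had 7 calls (2.2% of all), 6 of CD44 with an effect larger by 1.66 to 2.03 at 48 h, and CST3 230343_at (-1.41). The calls of 230343_at here, between doses and over time, follow from how it passed the filter and add no support. The CsA effect differed from that of Fk for no member at 12 h (0% of all in both fits) or 48 h (0.0143%, 0.119% with the block), and from that of Ra for none at 12 h (0%, 0.00954% with the block) or 48 h (14.8%, 21.6% with the block). At an unadjusted p under 0.05 the 9 comparisons of effects had 0 members, except Ra over time with 1. These counts come from limma.

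Over the 48 arrays, after each set's mean was taken off, HAVCR1 and CLU followed different genes. The genes most like HAVCR1 by Pearson correlation were GEN1 (0.90), FRYL (0.87), MYH10 (0.87), DHX9 (0.86) and TNFRSF19 (0.86). Those most like CLU were PHYH (0.89), B4GAT1 (0.88), CPE (0.86), LTA4H (0.85) and ARSL (0.85). HAVCR1 and CLU had a correlation of -0.32 with each other. CLU had its most negative value with ANXA2 (-0.77), and HAVCR1 its highest with S100A6 (0.64) and SPP1 (0.60). These describe arrays that share treatments, times and replicate numbers, and carry no test.

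Other genes of kidney injury and repair moved in both directions after Nnm, counted at 1 probe set per gene. Of 34 tested of 40 listed, 3 rose and 1 fell at the high dose at 48 h, where 16% of all 11356 genes were called, and 5 rose and 4 fell with the block (24.8% of all genes). PLAUR, the urokinase receptor, rose to 8.59 at the high dose, against 6.34 in vehicle (difference 2.26, SE 0.71, adjusted p = 0.0268 in limma). TGFBI, a matrix protein induced by TGF-beta, rose by 1.21 (adjusted p = 0.0289), and ANXA3, a further annexin, fell by 1.81 (adjusted p = 0.000145). At 24 h the high dose raised 1 and lowered 2 (22.1% of all genes), and raised 2 and lowered 8 with the block (30.5% of all genes). HMOX1, the inducible haem oxygenase, rose by 2.73 (adjusted p = 0.00648), and CXCL8, a neutrophil chemokine, fell by 2.61 (adjusted p = 0.0189), as did ANXA3 by 1.93. The low dose lowered ANXA3 by 2.22 at 24 h and by 1.65 at 48 h, with 2 and 1 genes of the list called (7.49% and 4.89% of all genes), and 3 and 6 with the block (15.2% and 10.9% of all genes). Each of these counts is a share of the list near or below that of all genes, except the 6 of 34 at the low dose and 48 h with the block. The median of the list at the high dose and 48 h was 0.02, the same as that of all genes.

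The called genes of largest change, up to 3 from each list and comparison, kept their calls without Nnm number 2, and several then had larger differences. These genes were picked by their calls in the same data. Number 2 was left out after it was seen to move less than the others, and the fit was changed to that with the block. Kept calls and larger differences were therefore likely in advance and add no support. In the block fit without it, all 12 at the high dose and 48 h, 13 at 24 h, and 5 and 4 at the low dose (24 h and 48 h) were called, as they were with arrays centred on their medians. At 24 h HMOX1 then differed by 4.21 and CXCL8 by -3.32, and at 48 h PLAUR by 3.22 and TGFBI by 1.59.

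With Ra at 48 h the share of the injury and repair list that was called lay below that of all genes, with and without the block. Ra raised 1 and lowered 3 of the 34 (17.5% of all genes), and raised 2 and lowered 5 with the block (24.6% of all genes). HAVCR1 and CLU were not called. SOX9, a transcription factor of tubule repair, rose by 2.33 (adjusted p = 0.0422 in limma), by 3.39 without Ra replicate 2 (0.0126) and by 2.62 with arrays centred on their medians (0.0189). ANXA1 fell by 1.19 (adjusted p = 0.00509) and ANXA3 by 1.07 (0.0149), but neither was called without Ra replicate 2 (-0.93 and -0.88, adjusted p = 0.0703 and 0.114), and ANXA3 was not with centred arrays (-0.78, adjusted p = 0.0791). Without replicate 2 the list had 1 higher and 0 lower (6.23% of all genes). With centred arrays it had 5 higher and 1 lower (15.7% of all genes), so its direction depended on the scaling. CsA and Fk called none of the 34 at either time, and Ra none at 12 h, where few or no genes of any kind were called. The shares of all genes were 0% for CsA at 12 h and for Fk at both times. They were 0.881% for CsA at 48 h and 0.0704% for Ra at 12 h.

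Genes that act beside the members were called in small numbers, to be read against the shares of all genes called. With Nnm these were 22.1% at the high dose and 24 h, and 7.49% at the low dose and 24 h. At the high dose and 48 h the share was 16%, or 24.8% with the block. With Ra at 48 h it was 17.5%. Of 7 tested of 12 receptors and shedding enzymes of HAVCR1 and CLU, 1 was called at 24 h at each dose of Nnm: ADAM17, a membrane protease that sheds cell-surface proteins, rose by 0.82 at the high dose (adjusted p = 0.00240 in limma) and by 0.59 at the low dose (0.0478). With Ra at 48 h ADAM17 fell by 0.86 (0.00230), and by 0.68 without Ra replicate 2 (0.0369). At the high dose and 48 h 2 of the 7 were called: RHBDF2, a partner of ADAM17, rose by 0.78 (adjusted p = 0.00115) and SORL1, a sorting receptor, by 0.86 (0.0272). Of 14 tested of 19 partners of osteopontin and CD44, 1 rose and 2 fell at the high dose and 24 h, and 1 rose and 1 fell at 48 h, or 2 and 3 with the block. ITGB5, an integrin chain that binds osteopontin, rose by 0.67 at 24 h (adjusted p = 0.0330) and 1.08 at 48 h (0.00155). NF2, the merlin gene whose product binds the CD44 tail, fell by 0.80 and 0.76 (adjusted p = 0.0312 and 0.0481). HAS3, a hyaluronan synthase, rose by 1.89 with Ra at 48 h (adjusted p = 0.0150), and by 2.01 without Ra replicate 2 (0.0449).

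Of 9 tested of 14 further cystatins and the proteases such inhibitors act on, 2 rose and 0 fell at the high dose at 48 h, beside 16% of all genes. With the block 2 rose and 1 fell, beside 24.8% of all genes. CTSL rose by 1.38 (adjusted p = 0.000326 in limma) and CTSB by 1.36 (0.0437). CTSL also rose at 24 h, by 0.88 at the high dose and 0.80 at the low dose, and by 0.93 at the low dose at 48 h. Of 17 tested of 18 annexins, S100 proteins and partners, 1 rose and 2 fell at the high dose and 48 h (16% of all genes). With the block 2 rose and 3 fell (24.8% of all genes). S100A13 rose by 0.80 (adjusted p = 0.00220), while ANXA3 fell and ANXA5 fell by 0.39 (0.0244). Of 19 tested of 21 class I genes, 2 rose at the high dose and 24 h, beside 22.1% of all genes, and 3 with the block (30.5% of all genes). The 2 were TAP1, a peptide transporter, by 1.18 (adjusted p = 0.0130 in limma) and NLRC5, a class I transactivator, by 1.14 (0.0190). At 48 h 1 rose (16% of all genes), or 3 with 1 lower with the block (24.8% of all genes). The gene that rose without the block was PSMB9, an immunoproteasome subunit, by 1.29 (0.00873).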

How the data were processed

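Total RNA of HK-2 cells was biotin-labelled and measured on 1 array per culture, 48 in all. The deposited values are log2 expression made by the authors with GCRMA, per the submitters' processing notes, whose version is not given in the sources used here. They ran from 0.721 to 16.1 and were used without further normalization, and since there are no counts, precision rests on having 3 arrays in a group. Of 54675 probe sets, 62 were control probe sets, 41091 had 1 gene symbol, 1801 had several and 11721 were not listed. Those with 1 symbol and a value over log2 4 in at least 3 arrays (20960) were tested with limma 3.58.1 in R 4.3.3 (lmFit and eBayes), with 1 mean per group and 32 residual degrees of freedom. There were 26 comparisons, adjusted by Benjamini-Hochberg within each, with a median SE of 0.273.

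Groups and replicate numbers came from the labels. The same-numbered arrays deviated together, with correlations of residuals of 0.243 to 0.907 in the CsA set (18 of 18 pairs over 0.1) and 0.156 to 0.774 in the Nnm set (45 of 45), against -0.150 to 0.711 in the Fk and Ra set (17 of 45), so the first 2 sets were taken as paired and a fit with the replicate number as a block was run beside the main one. The alternatives were median centring, quantile normalization, no filter, a filter at log2 6, each set fitted alone, a block in all sets, 1 probe set per gene, an intensity trend and each array left out in turn. Leaving out CsA number 3 or Nnm number 2, and for the related lists also the second Ra array of 48 h or centring, was added after the data were seen.

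All probe sets of the 8 genes are reported; of the related lists, up to 3 called genes of largest change per comparison are named. The members and lists were chosen with earlier results of these data known. The scripts were tested on simulated data. Promoter bases came from RefSeq (GRCh38.p14), and the probe sets' own sequences were not used here.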

Additional observations from a re-analysis of the deposited data

Results flagged for a closer look

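For B2M (201891_s_at) the Ra cultures at 48 h lay wholly below vehicle, with 14.13, 13.82 and 14.02 against 14.22, 14.16 and 14.19, while those at 12 h lay wholly above it, with 14.08, 14.07 and 14.03 against 13.96, 13.95 and 13.84. Of all probe sets tested, 16.3% lay wholly below vehicle with Ra at 48 h, and 15.3% wholly above it at 12 h. The differences of B2M were -0.20 and 0.14. The difference between them of -0.34 did not pass the test (adjusted p = 0.157 in limma, and 0.101 with the block). The vehicle itself differed by 0.27 between the times. Without Ra replicate 2, whose array had the low median, the 48 h difference was -0.12, and with each array centred on its median it was 0.08.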

How the results depend on the processing

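With 3 arrays per group the median SE of a difference was 0.273. No member's difference changed direction between a call and its alternative. Of 312 differences, 300 kept their side of the threshold and size under median centring, 308 under quantile normalization, 310 with no filter, 302 with each set fitted alone and 307 with an intensity trend, and all 286 with a filter at log2 6. Pairing by replicate number was the choice that moved most: with the replicate block in the CsA and Nnm sets 44 of 312 differences gained a call and 0 lost one, with member counts of 2 for Ra at 48 h, 2 and 12 for the low dose of Nnm at 24 h and 48 h, 3 and 16 for the high dose, and 8, 6 and 2 for vehicle over time in the CsA, Fk and Ra, and Nnm sets. A block in all sets gave 2, 4, 12, 3, 16, 10, 6 and 2 in this order, although numbers of the Fk and Ra set did not pair. With Nnm number 2 left out (chosen after seeing the data) the block gave 5 and 12 at the low dose, 8 and 14 at the high dose, 1 and 3 for high against low dose at 24 h and 48 h, and 7 for the high-dose effect at 48 h against 24 h. With CsA number 3 left out (also chosen after seeing the data) vehicle over time in the CsA set gave 3. Median centring gave 2 for Ra at 48 h and 0 for the Fk and Ra vehicle over time. For the low dose at 24 h, the high dose at 24 h and the Fk and Ra vehicle over time, quantile normalization gave 1, 2 and 2, the intensity trend 1, 2 and 3, and each set alone 2, 3 and 0, with 1 for Ra at 48 h. No filter gave 3 for the high dose at 48 h and 1 for Fk against Ra at 48 h. The log2 6 filter gave 0 for the high dose at 24 h. With 1 probe set per gene the counts were 0 and 2 for the high dose at 24 h and 48 h, and 0 for the Fk and Ra vehicle over time. Leaving out 1 array gave 0 to 12 calls for the high dose at 48 h (0 without its replicate 1, 12 without its replicate 2), 1 to 2 at 24 h, 0 to 2 for the low dose at 48 h, 0 to 3 for the CsA-set vehicle over time, 0 to 2 for the Fk and Ra vehicle, 0 to 1 for high against low dose at 24 h and 0 to 1 for the high-dose effect over time. The CST3 (201360_at) call at the high dose and 48 h was lost under median centring (adjusted p = 0.0639), with no filter (0.0639) and with the set alone (0.133). Causes of these changes were not tested.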
